A study of Homo sapiens with 3 samples.

Results

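Selenoproteins carry selenocysteine, an amino acid that is built on its own tRNA and inserted at a UGA codon that elsewhere ends translation. Reading UGA in this way needs a structure in the 3′ untranslated region of the mRNA (the SECIS element), the protein that binds it (SECISBP2) and a dedicated elongation factor. Many selenoproteins are oxidoreductases, among them the glutathione peroxidases, which reduce hydrogen peroxide or lipid peroxides with glutathione. The liver is the main source of selenoprotein P, the plasma protein that carries selenium to other tissues. The gene set described here has 10 members: the glutathione peroxidase genes GPX1, GPX2, GPX3 and GPX4, the selenoprotein genes SEPP1, SEPW1, SEP15 and SEPHS2, and the selenocysteine factors TRNAU1AP and SECISBP2. They were found by gene name, 10 of 10, among 55827 gene names with a locus in every library. The set was in part chosen by measured values: TRNAU1AP and GPX2 were selected on their FPKM differences between these libraries, so what is given for them is a description with no test.

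Total RNA came from the PLC line, which was derived from a human hepatocellular carcinoma, collected 48 hours after viral infection to deliver short hairpin RNAs. There was 1 library in each of 3 groups: shDIS3L2, with hairpins to lower DIS3L2, an exoribonuclease of uridylated RNA; shhnRNP U, with hairpins to lower hnRNP U (gene HNRNPU), a nuclear protein that binds RNA and chromatin; and NTC, a non-targeting control hairpin. All 3 groups were infected and grown in the same medium, and the labels do not say how many hairpins or cultures stand behind a library. Levels are the deposited FPKM, fragments scaled to transcript length and library size, and a range in parentheses gives the bounds deposited with the level. These bounds describe how well 1 library fixes the value and say nothing of other cultures. With 1 library per group no difference below has a replicate check, and no p-value is given.

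The libraries held about 18.6 M, 19.99 M and 23.0 M fragments in shDIS3L2, shhnRNP U and NTC, estimated from single-exon genes. DIS3L2 stood at 3.23 FPKM in shDIS3L2, 11.2 FPKM in shhnRNP U and 7.61 FPKM in NTC, and HNRNPU at 232, 33.5 and 178 FPKM in the same libraries, so each target was lowest in its own knockdown. Both target loci are merged with a neighbour, DIS3L2 with AC068134.10 and HNRNPU with HNRNPU-AS1. Of 8 hepatocyte markers, 7, 8 and 8 reached 1 FPKM in shDIS3L2, shhnRNP U and NTC, with summed levels of 3198, 7762 and 13102 FPKM. SERPINA1 makes up most of these sums, ALB was at 0.856, 5.21 and 11.8 FPKM, and FGB, at 17.9, 1.93 and 6.21 FPKM, was highest in shDIS3L2. All 5 fibroblast markers and the 2 endothelial markers found were below 1 FPKM in every library, and of 5 leukocyte markers CD68 alone reached it. The lower summed hepatocyte markers of both knockdowns run beside every difference below, and their part in them was not tested. The mitochondrial chromosome has 11, 10 and 0 entries in shDIS3L2, shhnRNP U and NTC, and what that does to the scaling of FPKM was not tested.

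The codon that defines the family is shown first, because 8 of the 10 genes are selenoproteins by it. GENCODE release 29 (GRCh38) annotates a selenocysteine codon in the 8 and in neither TRNAU1AP nor SECISBP2. Each line gives the 27 bases of the reference transcript around that codon, 5′ to 3′, with the codon in capitals. SEPP1 has 10 such codons and its first is shown.
GPX1: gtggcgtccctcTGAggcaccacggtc
GPX2: gtggcttcgctcTGAggcacaaccacc
GPX3: gtggccagctacTGAggcctgacgggc
GPX4: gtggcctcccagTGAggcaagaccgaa
SEPW1: tattgtggcgctTGAggctacaagtcc
SEPHS2: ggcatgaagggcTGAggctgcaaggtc
SEP15: gaagtttgtggaTGAaaattgggaagg
SEPP1: cttcaagccagcTGAtacctgtgcata
The codon is followed by GGC in 6 of the 8, all but SEP15 and SEPP1. All 4 peroxidase windows open with GTGGC, and GPX1 and GPX2 share 21 of 27 bases, the most among the peroxidases, against 15 for GPX2 and GPX3.

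The genes of the set did not all differ from NTC in the same direction. The size rule used below asks for a log2 ratio, taken after adding 1 to each FPKM, of 1 or more (higher) or -1 or less (lower) and for bounds that stay apart. In shDIS3L2 against NTC, 2 of 10 genes were lower (GPX2 and SEPHS2) and 0 higher, while 7.58% of 11787 measured loci were lower and 8.95% higher. In shhnRNP U against NTC, 2 of 10 were lower (TRNAU1AP and GPX2) and 0 higher, against 7.46% and 8.32% of all loci. Since TRNAU1AP and GPX2 were chosen for this, nothing is read from these counts. In bulk RNA, a lower level in every cell and fewer cells with the transcript cannot be told apart. Between the knockdowns, shhnRNP U over shDIS3L2, SEPHS2 was higher and TRNAU1AP lower, 1 of 10 each, where 10.2% and 10.5% of loci were called. Without the size condition, in shDIS3L2 against NTC the interval lay wholly above for 3 of 10 genes and wholly below for 5, where 32.7% and 25.3% of loci did so. In shhnRNP U against NTC the counts were 2 above and 7 below, beside 35.0% and 23.5% of loci. For shhnRNP U over shDIS3L2 they were 2 above and 5 below, beside 31.8% and 28.4%. Median log2 ratios of the 10 genes were -0.10 in shDIS3L2 and -0.38 in shhnRNP U against NTC, beside 0.09 and 0.12 over all loci. The interval counts and medians also include TRNAU1AP and GPX2, so nothing is read from them either. Abundant genes have narrow intervals, which small differences can separate. In NTC the interval half-width was 4.32% of the level for GPX4, beside a median of 10.7% over measured loci above 0 FPKM. Both comparisons with NTC use the same control library.

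**Figure D1:**
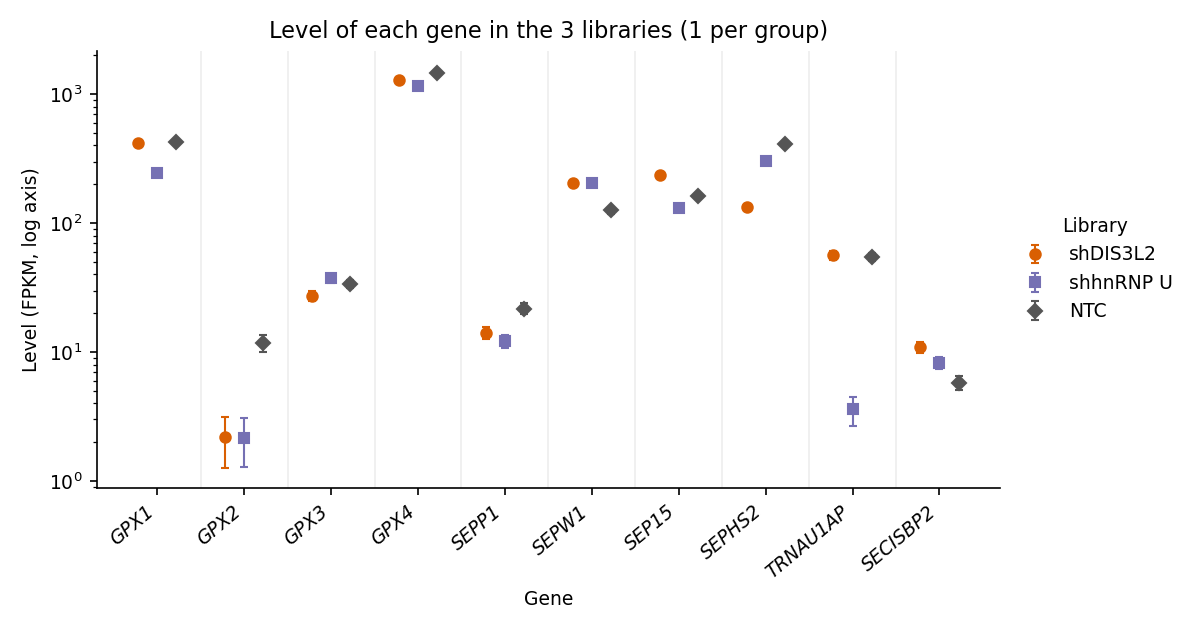
Level of each of the 10 genes in FPKM on a log axis, in the 1 library each of shDIS3L2 (circles), shhnRNP U (squares) and NTC (diamonds), with the deposited interval as error bars. GPX4 is highest in all 3, TRNAU1AP is at 3.60 FPKM in shhnRNP U, GPX2 is near 2.2 FPKM in both knockdowns and SEPHS2 is lowest in shDIS3L2.

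The glutathione peroxidases include the most and, in both knockdowns, the least abundant gene of the set. GPX4, which reduces lipid peroxides inside membranes and guards against ferroptosis, came first in each library. It stood at 1299 FPKM (1242 to 1357) in shDIS3L2, 1160 FPKM (1109 to 1211) in shhnRNP U and 1460 FPKM (1397 to 1523) in NTC. That is above 98.96%, 99.03% and 99.2% of measured loci in the same order. Both knockdown intervals lie below that of NTC, yet the log2 ratios were small, -0.17 in shDIS3L2 and -0.33 in shhnRNP U. Its locus is on chromosome 19 at 1103936 to 1106787 (hg19, as all gene coordinates here).

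GPX1, the cytosolic peroxidase whose mRNA is known to be lost first when selenium is scarce, differed between the knockdowns. It stood at 416 FPKM (396 to 435) in shDIS3L2 and 244 FPKM (231 to 256) in shhnRNP U, against 425 FPKM (405 to 445) in NTC. The shDIS3L2 value overlaps NTC, with a log2 ratio of -0.03, whereas shhnRNP U lies below both others, at -0.80 against NTC, without reaching the size rule. GPX4 over GPX1 was therefore 3.13 in shDIS3L2, 4.76 in shhnRNP U and 3.44 in NTC as a ratio of FPKM. The GPX1 locus (chromosome 3, 49394609 to 49396033) has an annotated pseudogene, GPX1P1, at no more than 0.273 FPKM in any library.

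GPX3, the secreted plasma peroxidase, differed little, with log2 ratios of -0.31 in shDIS3L2 and 0.13 in shhnRNP U against NTC. Its level was 27.3 FPKM (24.8 to 29.7) in shDIS3L2, 37.3 FPKM (34.4 to 40.1) in shhnRNP U and 34.0 FPKM (31.5 to 36.5) in NTC. The shDIS3L2 interval lies below the other two and those of shhnRNP U and NTC overlap. The locus is on chromosome 5 at 150400124 to 150408554.

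GPX2, the peroxidase best known from gut epithelium and a known target of the antioxidant transcription factor NRF2, was low in both knockdowns. Its level was 2.20 FPKM (1.27 to 3.13) in shDIS3L2 and 2.17 FPKM (1.28 to 3.05) in shhnRNP U, against 11.8 FPKM (10.1 to 13.5) in NTC. The knockdown libraries overlap almost fully, at a log2 ratio of -0.01 for shhnRNP U over shDIS3L2, and both lie below NTC, 5.37-fold in shDIS3L2 and 5.44-fold in shhnRNP U. On the scale of FPKM plus 1, which understates the change of low genes, the log2 ratio was -2.0 in each knockdown. These are the thinnest values of the set: the intervals are as wide as counting 22.3, 23.8 and 191 fragments would give in shDIS3L2, shhnRNP U and NTC. GPX2 (chromosome 14, 65405870 to 65409531) lies inside the merged locus of CHURC1 and FNTB, at 23.4, 24.9 and 27.5 FPKM in the same libraries, and since no label says that strand was kept, fragments of overlapping genes cannot be told apart.

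The GPX2 promoter is printed because GPX2 is the only member lower by the size rule in both knockdowns and because its response element is known. The stretch is from RefSeq (GRCh38.p14, chr14:64942696-64942995, minus strand), 250 bases before to 50 after the start, 5′ to 3′.
GPX2 promoter: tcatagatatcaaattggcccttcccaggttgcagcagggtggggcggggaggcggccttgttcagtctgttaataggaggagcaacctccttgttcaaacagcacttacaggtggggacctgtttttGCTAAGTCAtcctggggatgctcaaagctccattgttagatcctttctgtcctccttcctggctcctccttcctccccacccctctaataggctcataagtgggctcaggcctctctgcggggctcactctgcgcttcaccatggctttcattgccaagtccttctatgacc
The capitals mark the match to TGACNNNGC, the core of the antioxidant response element, on the opposite strand, starting at position -122. The motif was searched on both strands of the 14 RefSeq promoters of all 10 genes and is in 3 of them, those of GPX2 and SEPP1 and 1 of SECISBP2. It is in 13.3% of all 35116 promoters of this length. A match is a description of letters only.

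SEPP1, which encodes selenoprotein P, was below NTC in both knockdowns without passing the size rule. It stood at 14.1 FPKM (12.6 to 15.7) in shDIS3L2 and 12.1 FPKM (10.7 to 13.5) in shhnRNP U, against 21.7 FPKM (19.6 to 23.9) in NTC. The knockdown intervals overlap each other and neither reaches that of NTC, with log2 ratios of -0.59 and -0.79. Its locus (chromosome 5, 42799982 to 42887494) overlaps CCDC152, listed at 0 in all 3 libraries.

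SEPW1, a small selenoprotein of the thioredoxin-like family, was above NTC in both knockdowns. It was at 206 FPKM (195 to 217) in shDIS3L2 and 205 FPKM (194 to 216) in shhnRNP U, against 126 FPKM (119 to 134) in NTC. The knockdown libraries cannot be separated from each other, at a log2 ratio of -0.01, and both lie above NTC by 0.70 and 0.69. SEPW1 is on chromosome 19 at 48281829 to 48287943.

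SEP15, a selenoprotein of the endoplasmic reticulum that binds the folding sensor UGGT, stood on opposite sides of NTC in the knockdowns. Its level was 236 FPKM (226 to 246) in shDIS3L2 and 132 FPKM (126 to 138) in shhnRNP U, against 162 FPKM (155 to 169) in NTC, and no intervals overlap. The log2 ratios were 0.54 and -0.30 against NTC and -0.83 for shhnRNP U over shDIS3L2, all inside the size rule. The locus is on chromosome 1 at 87328132 to 87380107.

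SEPHS2, selenophosphate synthetase, makes the selenium donor for selenocysteine and is itself a selenoprotein. It stood at 134 FPKM (129 to 140) in shDIS3L2 and 302 FPKM (290 to 313) in shhnRNP U, against 408 FPKM (390 to 426) in NTC. All 3 intervals are apart, with shDIS3L2 lowest by 3.04-fold against NTC (log2 ratio -1.59) and shhnRNP U between (-0.44). The difference between the knockdowns, 1.16 for shhnRNP U over shDIS3L2, also passed the size rule. SEPHS2 (chromosome 16, 30454952 to 30457502) had the same assembled bounds in every library and overlapped no other locus, and its pseudogene SEPHS2P1 was listed at 0 throughout.

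**Figure D2:**
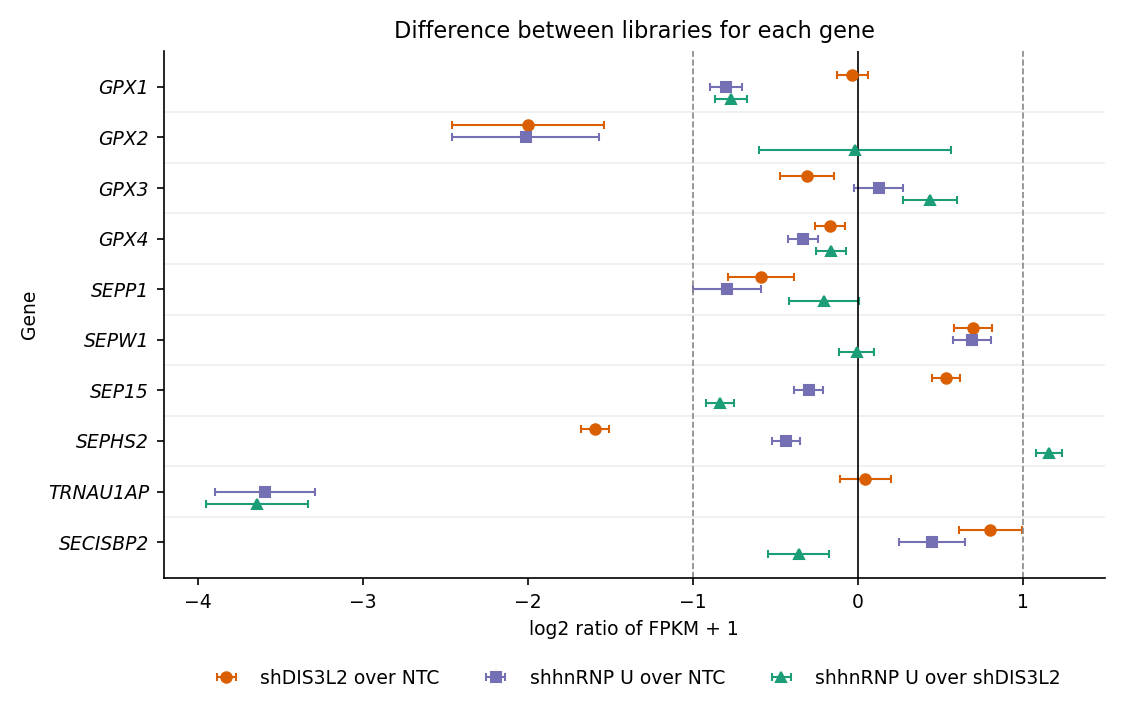
Log2 ratio of FPKM plus 1 for each of the 10 genes in shDIS3L2 over NTC (circles), shhnRNP U over NTC (squares) and shhnRNP U over shDIS3L2 (triangles), with bars from the deposited within-library intervals. Dashed lines mark the size rule at -1 and 1: beyond them lie GPX2 in both knockdowns against NTC, SEPHS2 in shDIS3L2 against NTC and in shhnRNP U over shDIS3L2, and TRNAU1AP wherever shhnRNP U is compared.

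TRNAU1AP encodes a protein that associates with the selenocysteine tRNA and is known to stabilise it and aid its methylation. Its level was 56.5 FPKM (51.9 to 61.1) in shDIS3L2 and 3.60 FPKM (2.69 to 4.51) in shhnRNP U, against 54.6 FPKM (50.5 to 58.8) in NTC. The shDIS3L2 and NTC intervals overlap, at a log2 ratio of 0.05, and shhnRNP U lies far below both. It was 15.2-fold lower than NTC (log2 ratio -3.60) and 15.7-fold lower than shDIS3L2 (-3.64). In shhnRNP U over NTC, 1.26% of measured loci had a lower ratio. No other gene of the set differed by as much in any of the 3 comparisons. TRNAU1AP was chosen for its change, so nothing is read from these ranks.

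The locus of TRNAU1AP was not assembled alike in the libraries. In shDIS3L2 it spans chromosome 1, 28879597 to 28905051, and in NTC 28879588 to 28905051, and there it meets the snoRNA host gene SNHG12 by 2 bases. In shhnRNP U it ends at 28906161, which is 1110 bases further on, and it covers 1112 bases of SNHG12 and the snoRNA gene SNORD99, listed at 0. SNHG12 itself stood at 19.4 FPKM (16.6 to 22.1) in shDIS3L2, 12.3 FPKM (9.79 to 14.9) in shhnRNP U and 19.5 FPKM (17.1 to 22.0) in NTC. The part that the different assembly has in the low TRNAU1AP value was not tested, as the tables hold no values per exon or isoform. If loci are limited to those with 1 name and bounds within 100 bases of each other in all libraries, TRNAU1AP drops out.

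**Figure D3:**
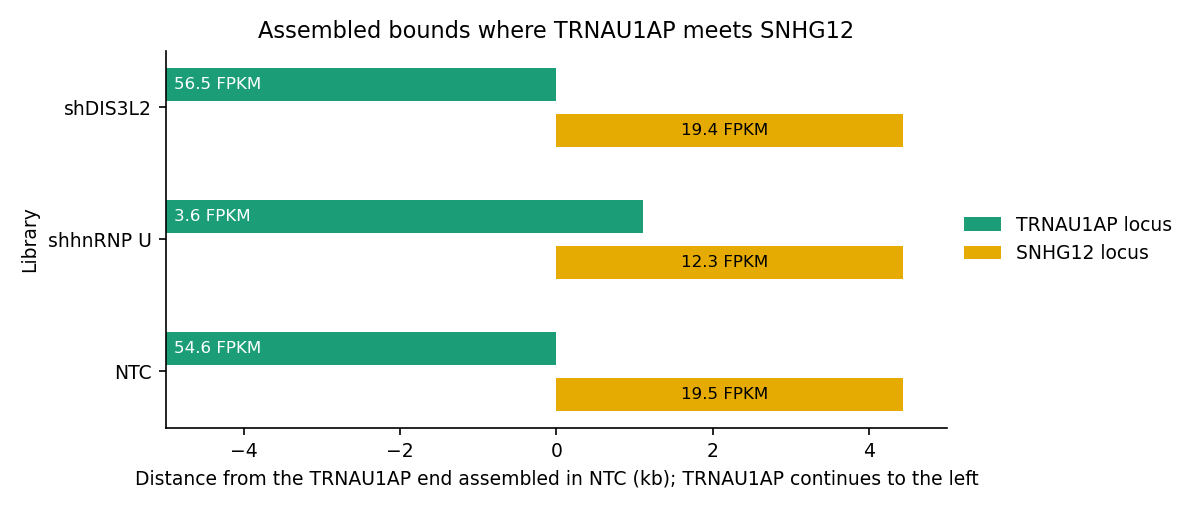
Assembled bounds of TRNAU1AP (upper bar of each pair) and SNHG12 (lower bar) in shDIS3L2, shhnRNP U and NTC, in kb from the TRNAU1AP end in NTC, with each locus's FPKM written on it. The TRNAU1AP bar runs across the boundary in shhnRNP U alone, the library where its level is 3.60 FPKM.

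SECISBP2, the protein that binds the SECIS element and recruits the elongation factor, was the least abundant gene in NTC. It stood at 10.9 FPKM (9.82 to 11.9) in shDIS3L2 and 8.26 FPKM (7.39 to 9.13) in shhnRNP U, against 5.79 FPKM (5.10 to 6.47) in NTC. All 3 intervals are apart and both knockdowns lie above NTC, at log2 ratios of 0.80 and 0.45. The assembled start on chromosome 9 lies 128 bases further on in both knockdowns (91933421) than in NTC (91933293), so this gene too is missing from the limited set. TRNAU1AP over SECISBP2 was 5.20 in shDIS3L2, 0.436 in shhnRNP U and 9.45 in NTC, as a ratio of FPKM. This ratio carries the TRNAU1AP value, chosen for its change, and both loci differ in bounds between libraries, so nothing is read from it.

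By level, the order of the set held at its top and changed below it. GPX4 was followed by GPX1, SEP15 and SEPW1 in shDIS3L2, by SEPHS2, GPX1 and SEPW1 in shhnRNP U and by GPX1, SEPHS2 and SEP15 in NTC. Neighbours in this order had separate intervals with 2 exceptions, TRNAU1AP and GPX2 in shhnRNP U and GPX1 and SEPHS2 in NTC. The 8 selenoprotein genes summed to 2335 FPKM in shDIS3L2, 2093 FPKM in shhnRNP U and 2650 FPKM in NTC. GPX4 held 55.7%, 55.4% and 55.1% of that sum in the same order, so its share stayed near the same while the members under it changed places.

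Genes whose pattern over the 3 libraries lay nearest to TRNAU1AP and GPX2 were sought among 6189 loci with 1 name and a mean of at least 5 FPKM. Likeness was the distance between genes in the plane of the 2 log2 ratios against NTC. Nearest to TRNAU1AP were MCCC2, a subunit of methylcrotonyl-CoA carboxylase (distance 0.31), the carbonic anhydrase gene CA2 (0.58) and CCDC28B (0.70). MCCC2 stood at 28.2 FPKM in shDIS3L2 and 1.85 FPKM in shhnRNP U, against 26.8 FPKM in NTC. Among those near GPX2 were RRP7A, a ribosome biogenesis factor (0.18), and the syndecan gene SDC2 (0.25). RRP7A was at 24.3 FPKM in shDIS3L2 and 28.6 FPKM in shhnRNP U, against 106 FPKM in NTC. The 1 added to each FPKM shrinks the ratios of GPX2 more than those of RRP7A. On plain FPKM, GPX2 was 5.37-fold and 5.44-fold lower in shDIS3L2 and shhnRNP U, and RRP7A 4.38-fold and 3.71-fold. The assembled start of RRP7A was 42904388 in shhnRNP U, against 42905974 in both other libraries.

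Among the other 17 selenoprotein genes, 13 had a mean of at least 1 FPKM, and DIO1, DIO2, GPX6 and SELV did not. In shDIS3L2 against NTC, 1 of 13 was higher and 1 lower, near the 8.95% and 7.58% of all loci, with a median log2 ratio of 0.28 beside 0.09 over all loci. In shhnRNP U against NTC 0 of 13 were called, where 8.32% of loci were higher and 7.46% lower, with a median of 0.11 beside 0.12. That median was 0.0041 without TXNRD2, which has a library listed at 0, and -0.04 after rescaling by the median of ratios. For shhnRNP U over shDIS3L2, TXNRD2 was the 1 higher and TXNRD1 the 1 lower, where 10.2% and 10.5% of loci were called. In shDIS3L2 against NTC, the higher gene was TXNRD1, cytosolic thioredoxin reductase. It stood at 78.7 FPKM (74.5 to 82.8) in shDIS3L2 and 18.4 FPKM (16.8 to 20.01) in shhnRNP U, against 24.9 FPKM (23.3 to 26.5) in NTC. Its knockdown values lie on opposite sides of NTC, with log2 ratios of 1.62 and -0.42. The lower gene in shDIS3L2 against NTC was TXNRD2, the mitochondrial reductase. It is listed at 0 in shDIS3L2 and stood at 65.0 FPKM in shhnRNP U and 36.6 FPKM in NTC. Such a 0 need not mean absence. In shDIS3L2, shhnRNP U and NTC, 108, 97 and 78 gene names are listed at 0 while both other libraries hold at least 5 FPKM. Entries with a deposited status other than OK number 0, 4 and 1 in the same libraries. The cause of these zeros was not tested. The most abundant others were SELM, at 605, 537 and 496 FPKM in shDIS3L2, shhnRNP U and NTC, and MSRB1, the methionine sulfoxide reductase, at 63.8, 115 and 91.0 FPKM. C11orf31 (selenoprotein H) is merged with CTNND1 and TMX2, so its 535, 543 and 656 FPKM are not its own.

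Of 16 other genes of selenocysteine synthesis, insertion and selenium uptake, 14 have a locus and 11 reached a mean of 1 FPKM. The selenocysteine tRNA genes were sought as TRNAU1 and TRNAU2, and neither name was matched across the 3 libraries. EEFSEC, the selenocysteine elongation factor, is listed at 0 in all 3 libraries. In shDIS3L2 against NTC 1 of 11 was higher and 1 lower, near the 8.95% and 7.58% of all loci. The higher one was PSTK, the kinase that acts on the charged tRNA, with 5.64 FPKM (4.36 to 6.92) in shDIS3L2 and listed at 0 in both other libraries. PSTK reached a mean of 1 FPKM through shDIS3L2 alone, so nothing is read from its calls. Among the 10 genes above 0 in every library, 0 were higher in this comparison. The lower one was SEPHS1, a relative of SEPHS2 that does not itself make selenophosphate, at 40.5 FPKM (37.9 to 43.2) in shDIS3L2, 56.3 FPKM (51.8 to 60.7) in shhnRNP U and 85.5 FPKM (80.2 to 90.9) in NTC. SEPHS1 and SEPHS2 were thus both lowest in shDIS3L2, with log2 ratios against NTC of -1.06 and -1.59.

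In shhnRNP U against NTC 1 of 11 was higher and 1 lower, where 8.32% and 7.46% of loci were. SECISBP2L, a paralogue of SECISBP2, was higher at 4.61 FPKM (3.38 to 5.84) in shhnRNP U, against 1.56 FPKM (0.759 to 2.36) in NTC. LRP8, a receptor that takes up selenoprotein P, was lower at 4.49 FPKM (3.69 to 5.29) in shhnRNP U, against 10.2 FPKM (9.43 to 11.1) in NTC. Its locus is merged with RP5-1024G6.8, and its assembled bounds differed. Between the knockdowns, shhnRNP U over shDIS3L2, SECISBP2L and EIF4A3, a helicase that can block SECISBP2 from some SECIS elements, were higher and LRP8 and PSTK lower. These are 2 of 11 each way, where 10.2% and 10.5% of loci were called. Without PSTK, 1 of 10 was lower. The median log2 ratio of the 11 genes was 0.16 in shDIS3L2 and 0.01 in shhnRNP U against NTC, beside 0.09 and 0.12 over all loci. Without PSTK the list medians were 0.14 and 0.03. EIF4A3 stood at 159 FPKM in shhnRNP U and 77.0 FPKM in shDIS3L2. The 3 most abundant genes passed in no comparison. RPL30, a ribosomal protein that can bind SECIS elements, stood at 3117, 1899 and 2352 FPKM in shDIS3L2, shhnRNP U and NTC, and SARS, which charges the tRNA with serine, at 177, 163 and 158 FPKM. The third, NCL (nucleolin), was at 272, 269.5 and 250.3 FPKM in the same libraries.

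The glutathione and peroxide genes that work beside the peroxidases numbered 18, of which 16 reached a mean of 1 FPKM, all but SLC7A11 and GPX7. In shDIS3L2 against NTC 4 of 16 were higher and 0 lower, where 8.95% and 7.58% of all loci were, with a median log2 ratio of 0.32 beside 0.09 over all loci. After rescaling by the median of ratios 2 of 16 were called. The 4 were GCLC, the catalytic subunit of the first step of glutathione synthesis (log2 ratio 1.38), the peroxidase relative GPX8, which uses cysteine in place of selenocysteine (1.22), SOD2, mitochondrial superoxide dismutase (1.10), and SLC3A2, the heavy chain of the cystine carrier (1.04). In shhnRNP U against NTC 1 of 16 was higher, GPX8, and 0 lower, where 8.32% and 7.46% of loci were, with a median of 0.11 beside 0.12. It stood at 5.20 FPKM (3.72 to 6.68) in shDIS3L2 and 8.01 FPKM (6.67 to 9.36) in shhnRNP U, against 1.66 FPKM (0.899 to 2.41) in NTC. For shhnRNP U over shDIS3L2 0 of 16 were called, where 10.2% of loci were higher and 10.5% lower. GCLC was at 20.6 FPKM in shDIS3L2 and 11.2 FPKM in shhnRNP U, against 7.29 FPKM in NTC. Its locus is merged with RP1-27K12.2, so the GCLC values are not of that gene alone. The most abundant of the list, PRDX5 (1146, 735 and 888 FPKM in shDIS3L2, shhnRNP U and NTC), PRDX1 (808, 722 and 726 FPKM) and PRDX4 (552, 356 and 370 FPKM), all peroxiredoxins, passed in no comparison. GPX2, low in both knockdowns, and GPX8, high in both, thus stood on opposite sides of NTC. GPX2 was chosen for its change. GPX8 has an interval half-width of 45.7% in NTC, a mean of 4.96 FPKM and assembled ends that differ between the libraries.

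**Figure D4:**
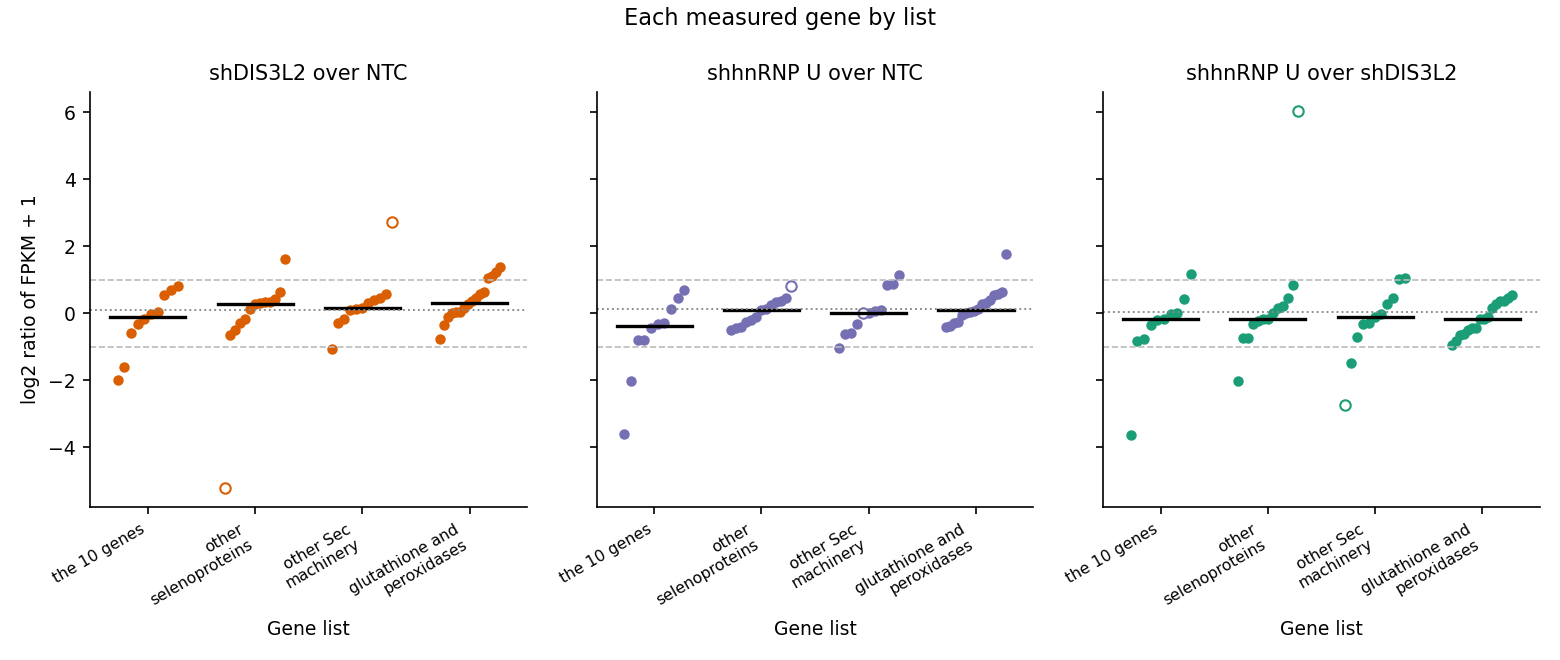
Log2 ratio of FPKM plus 1 for each measured gene of the 10-gene set and of the 3 other lists, in shDIS3L2 over NTC, shhnRNP U over NTC and shhnRNP U over shDIS3L2. Points are genes, open where a library is listed at 0, black bars are list medians, the dotted line is the median of all loci and dashed lines are the size rule. Most points lie within -1 and 1, and the outlying filled points of the 10 genes are GPX2, SEPHS2 and TRNAU1AP.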

How the data were processed

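Each library has 1 table of FPKM per gene, deposited by the authors with low and high bounds per the file headers. Per the submitters' processing notes the tools were TopHat2 2.0.12 and Cufflinks 2.2.1 and the build was hg19. The annotation release and the options of these tools are not known here. Assembled loci carry identifiers that differ between the deposited tables. The bounds were taken as 95% intervals, the Cufflinks default, which the headers do not state. Fragment numbers worked out from them were whole within 0.02 in 53.6%, 49.6% and 48.4% of estimates up to 20 in shDIS3L2, shhnRNP U and NTC, too few for a count test.

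Genes were matched by name, and loci with a mean FPKM of at least 1 were measured, a merged locus counting once. The log2 ratio used a pseudocount of 1, and its bars combine both deposited intervals. With 1 library per group nothing was tested for significance. Python 3.11.15 and pandas 2.3.3 were used. Of the other lists, genes past the size rule, up to 5 per list by size, and the 3 most abundant were to be named. For TRNAU1AP and GPX2 the 3 genes nearest in pattern were to be named, and 1 of them is not reported here. The members and lists were chosen with earlier results of these data known. Other settings were pseudocounts of 0.1 and 5, rescaling by the median of ratios, a fold of 1.5, ignoring intervals, no FPKM filter or a mean of at least 5, loci summed per name, and loci with 1 name and bounds within 100 bases.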

Additional observations from a re-analysis of the deposited data

How the results depend on the processing

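Of 30 member ratios (10 genes, 3 comparisons), calls changed at a fold of 1.5 alone, in 8. There, 2 genes were higher (SEPW1, SECISBP2) and 3 lower (SEPP1 added) in shDIS3L2 against NTC, 1 higher (SEPW1) and 4 lower (GPX1 and SEPP1 added) in shhnRNP U against NTC, and 1 higher and 3 lower (GPX1 and SEP15 added) in shhnRNP U over shDIS3L2. With loci of 1 name and like bounds, TRNAU1AP and SECISBP2 drop out, leaving 1 lower gene in shhnRNP U against NTC and 0 in shhnRNP U over shDIS3L2, because fewer genes are tested. Signs changed under rescaling by the median of ratios alone, in 2 of 30 uncalled values: GPX3 in shhnRNP U (0.13 against -0.02 rescaled) and TRNAU1AP in shDIS3L2 (0.05 against -0.05). Rescaling moved the all-locus median by -0.09 in shDIS3L2 and -0.12 in shhnRNP U against NTC. The shares of loci higher and lower became 6.41% and 9.20% in shhnRNP U against NTC, beside 8.32% and 7.46%. In that comparison rescaling also turned the medians of the 3 other lists, to -0.04 for other selenoproteins (0.11 before), -0.10 for machinery (0.01) and -0.04 for glutathione genes (0.11).

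Called genes of the other lists changed as follows, and the cause was not tested except where a filter tests fewer genes. In the glutathione list, shDIS3L2 against NTC gave 2 with like bounds and 2 rescaled. For shhnRNP U against NTC it gave 0 with like bounds, a mean FPKM of at least 5 or a pseudocount of 5, and 2 at a fold of 1.5. For shhnRNP U over shDIS3L2 it gave 4 at a fold of 1.5. In the machinery list, shDIS3L2 against NTC gave 1 with a mean FPKM of at least 5 or a pseudocount of 5. For shhnRNP U against NTC it gave 1 with like bounds or a mean of at least 5, 0 with a pseudocount of 5 and 6 at a fold of 1.5. For shhnRNP U over shDIS3L2 it gave 2 with a mean of at least 5 and 2 rescaled. Among other selenoproteins a fold of 1.5 gave 4 in shDIS3L2 and 1 in shhnRNP U against NTC, and 5 in shhnRNP U over shDIS3L2.

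No paired analysis was possible because each group has 1 library. Depth limits GPX2 most, with an interval half-width of 42.3% in shDIS3L2 and 41.0% in shhnRNP U, against 14.5% in NTC.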
